A study of Homo sapiens with 18 samples.

Results

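The 10 genes described here are the MAP kinase phosphatases DUSP1, DUSP4, DUSP5, DUSP6 and DUSP10, the Sprouty genes SPRY2 and SPRY4, the Spred genes SPRED1 and SPRED2, and PHLDA1. They were chosen by name, as genes known for feedback on ERK signalling, with earlier results of these data known. Their rows were found by gene ID among 23604 genes listed in the RNA-Seq files. The data come from MCF10A-ErSrc, an untransformed breast epithelial line that carries the v-Src kinase fused to a hormone-binding part of the estrogen receptor, so that tamoxifen switches Src on. Cells without tamoxifen (NT) and cells transformed with tamoxifen (TAM) each received either DMSO or triptolide (TPL-125nM in the labels, giving NT + TPL and TAM + TPL) over 4 h, a small molecule that binds XPB in the general transcription factor TFIIH. RNA-Seq was made from 2 biological replicates of each of the 4 groups, and RNA polymerase II (RNAPII) ChIP-Seq with the antibody 8WG16 is represented by 1 list of promoter peaks per condition. Every group carries the Src fusion, and exposure to tamoxifen and activation of Src cannot be told apart in the TAM groups. A single cell line was used.

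ERK is the last kinase of the cascade that runs from growth factor receptors through RAS, RAF and MEK, and it induces genes whose products shut the cascade down again. DUSP proteins remove the activating phosphates from MAP kinases, Sprouty and Spred proteins act higher up, between the receptors and RAF, and PHLDA1 is a pleckstrin homology domain protein induced by the same signals. Most of these messengers are short-lived, and in breast epithelium, which depends on epidermal growth factor in culture, they are commonly read as a gauge of ERK output.

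The libraries held between 7461309 and 8349448 expected counts, the reads that the authors' software assigned to each gene. All 10 genes had reads in each of the 8 libraries, the lowest value being 9.21 expected counts for SPRY2 in TAM + TPL replicate 1, and all 10 passed the filter on low counts. Of 9 markers of basal breast epithelium, 8 were above 1 FPKM (fragments per kilobase of transcript, scaled to the mapped fragments of the library) in every library. The exception was TP63, which lay between 13.2 and 24.2 FPKM without TPL and between 0.28 and 0.89 FPKM with it. Summed over these 9 markers, NT libraries held 12900 to 14500 FPKM and TAM libraries 3090 to 3280 FPKM, and with TPL the sums were 8900 to 10900 FPKM for NT cells and 1510 to 1650 FPKM for TAM cells. KRT5 and KRT17 made up most of each sum. CDH1 and ITGA6 have other rows besides the one under their gene ID, and these were not used. Between TAM and NT cells in DMSO, 3 of the 9 were called lower, KRT5, KRT14 and KRT17, and the 6 others were not called. Of these, EPCAM and TP63 had log2 fold changes above 0, of 0.69 and 0.36. PECAM1 and VWF of endothelium stayed at or below 1.69 FPKM. Of the 2 blood markers, PTPRC did not exceed 2.14 FPKM, whereas CD68 read 47.2 and 47.1 FPKM in NT and 301 and 281 FPKM in TAM cells. Of 2 hormone receptor genes, PGR was at or near 0 and ESR1 read 200 and 248 FPKM in NT and 95.3 and 68.5 FPKM in TAM cells. Whether those reads stem from the receptor part of the Src fusion was not tested. The fibroblast markers DCN, COL1A1 and PDGFRB reached at most 6.69 FPKM and the fat cell marker ADIPOQ at most 2.70 FPKM. The part of these marker differences in the results on the feedback genes was not tested.

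The promoters of 5 of the genes are shown because their transcripts took different courses with TPL: DUSP1, SPRY2 and DUSP6 were lower with it, whereas DUSP5 and DUSP10 were higher, DUSP10 past the test in TAM cells alone. Each sequence holds the 200 bases before the main TSS, the start of the Ensembl canonical transcript in GENCODE release 44 placed on GRCh37 (hg19), and was read from the GRCh37 genome 5′ to 3′ on the strand of the gene. Capitals mark cAMP response element half-sites (TGACG), the letters TATAA of the TATA element, CCAAT boxes, ETS sites (CCGGAA) and CArG boxes on either strand, so that CCAAT on the opposite strand reads ATTGG and TGACG reads CGTCA. The windows were chr5:172198199-172198398 on the minus strand for DUSP1, chr13:80915262-80915461 on the minus strand for SPRY2, chr12:89746279-89746478 on the minus strand for DUSP6, chr10:112257465-112257664 on the plus strand for DUSP5, and chr1:221915432-221915631 on the minus strand for DUSP10.
DUSP1: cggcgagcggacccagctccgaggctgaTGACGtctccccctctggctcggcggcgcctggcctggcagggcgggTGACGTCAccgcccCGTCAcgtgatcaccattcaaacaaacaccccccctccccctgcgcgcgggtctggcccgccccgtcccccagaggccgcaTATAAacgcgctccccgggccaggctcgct
SPRY2: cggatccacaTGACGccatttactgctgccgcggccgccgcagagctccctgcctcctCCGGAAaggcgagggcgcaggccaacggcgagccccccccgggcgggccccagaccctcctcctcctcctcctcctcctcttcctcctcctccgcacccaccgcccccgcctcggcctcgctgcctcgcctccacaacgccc
DUSP6: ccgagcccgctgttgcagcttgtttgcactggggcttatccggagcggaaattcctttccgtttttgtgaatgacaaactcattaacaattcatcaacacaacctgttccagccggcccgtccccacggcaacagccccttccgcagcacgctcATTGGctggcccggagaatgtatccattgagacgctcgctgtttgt
DUSP5: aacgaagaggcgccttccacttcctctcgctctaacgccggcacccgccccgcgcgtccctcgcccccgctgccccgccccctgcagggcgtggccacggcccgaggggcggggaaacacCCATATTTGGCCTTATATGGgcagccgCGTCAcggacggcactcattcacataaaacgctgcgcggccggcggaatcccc
DUSP10: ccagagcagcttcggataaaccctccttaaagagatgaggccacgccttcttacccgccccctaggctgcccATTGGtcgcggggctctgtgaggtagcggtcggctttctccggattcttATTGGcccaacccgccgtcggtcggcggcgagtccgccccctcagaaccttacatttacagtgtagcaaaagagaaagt

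The DUSP1 window held 4 half-sites, 2 of which overlap on opposite strands, and a TATA element 30 to 26 bases before it. DUSP5 carried adjoining CArG boxes, the site of serum response factor, 80 to 71 and 70 to 61 bases before its TSS. Its TATA match on the opposite strand lies within the nearer box. A CArG box occurred in 0.916% of 13315 promoters of the same length and in no other of the 10 genes, whereas half-sites, found in DUSP1, DUSP5 and SPRY2, occurred in 26.0% of them. ETS sites were in DUSP4, SPRY2 and PHLDA1 and in 22.1% of all promoters. CCAAT boxes were in DUSP6 and DUSP10 and in 30.9% of all promoters, and TATA elements were in DUSP1 and DUSP5 and in 8.44%. AP-1 sites (TGANTCA) were in none of the 10 windows and in 3.09% of all. GC boxes (GGGCGG), not shown in capitals, were in 8 of the 10 windows and in 66.8% of all. These matches describe letters in the windows and not bound sites.

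**Figure D1:**
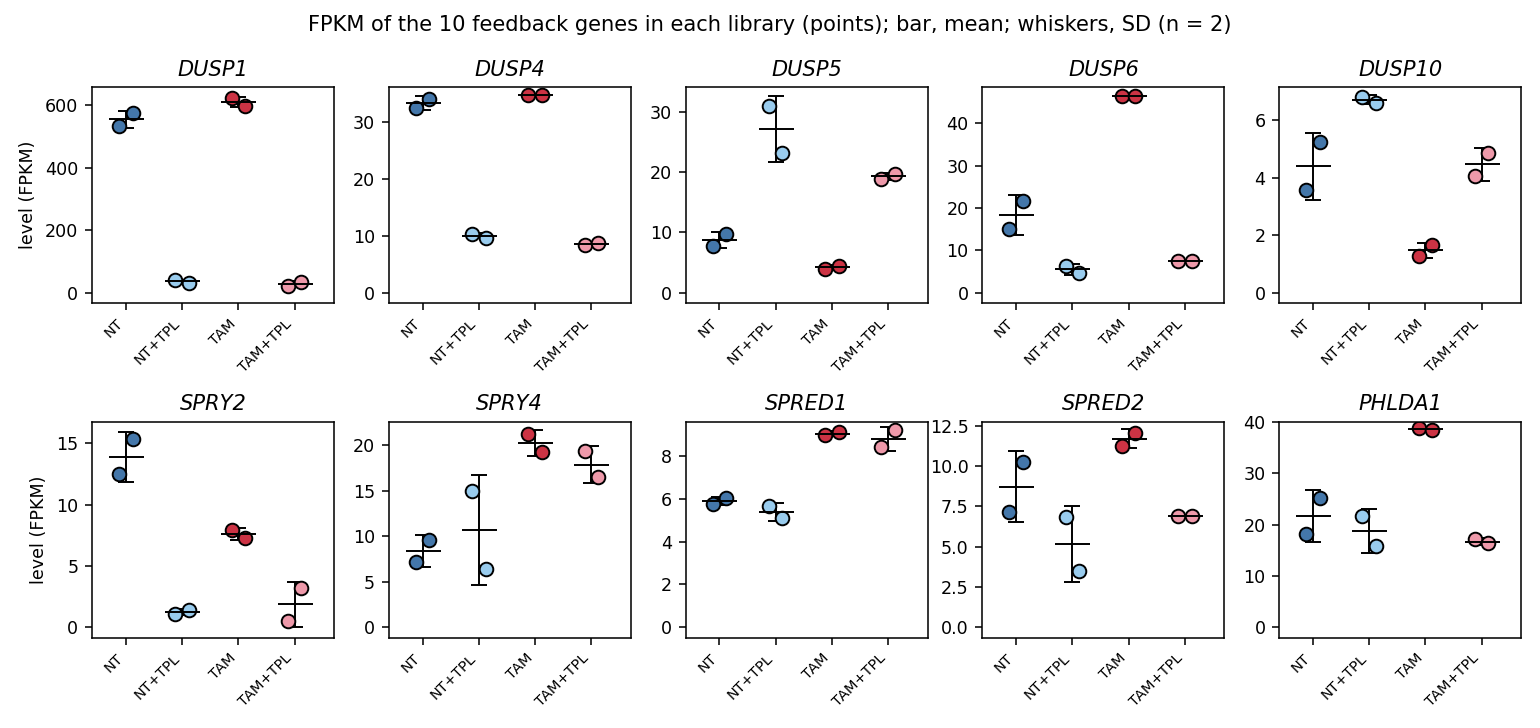
Level of each feedback gene in FPKM (vertical axis, linear, 1 scale per gene) in the 4 groups; points are libraries, horizontal bars means and whiskers SD (n = 2). DUSP1 stood between 534 and 621 FPKM without TPL and between 21.4 and 40.0 FPKM with it, whereas DUSP5 was higher in all 4 libraries with TPL.

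To see how TPL acted on the feedback genes of untransformed cells, NT + TPL was compared with NT. DUSP1, DUSP4, DUSP6 and SPRY2 fell and DUSP5 rose, which makes 5 of the 10 genes called at an adjusted p of at most 0.05. With the same rule 37.0% of the 16948 genes tested were called, 19.8% lower and 17.2% higher. Higher calls made up 46.5% of all calls, 60.9% with upper quartile scaling and 23.7% with GAPDH as the reference, and all genes together had a median log2 fold change of 0.31 and -0.26 with these. With TMM scaling this median was 0.09, and the one over the 10 genes was -0.51. All tests are edgeR's quasi-likelihood test on the 4 groups together, with adjustment over all genes tested. Levels are relative to the rest of each library, and fewer messengers in all or less RNA per cell cannot be told apart from a change of single genes.

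Among the phosphatases, DUSP1, a nuclear enzyme that acts on p38 and JNK as well as ERK, was the most abundant of the 10 genes in every group. It read 534 and 574 FPKM in the NT libraries and 40.0 and 32.1 FPKM with TPL. That is a 15.5-fold fall, with a log2 fold change of -3.95 (SE 0.246, 95% interval -4.53 to -3.37, edgeR adjusted p = 0.000221). DUSP4, a nuclear phosphatase close to DUSP1 in sequence, read 32.3 and 34.0 FPKM and then 10.3 and 9.66 FPKM. It fell 3.35-fold, with a log2 fold change of -1.74 (SE 0.118, edgeR adjusted p = 0.000259). DUSP6, the cytoplasmic phosphatase selective for ERK, went from 15.0 and 21.7 FPKM to 6.39 and 4.61 FPKM. Its log2 fold change was -1.76 (SE 0.224, edgeR adjusted p = 0.0017). For each of these 3 genes both treated libraries lay below both controls. Libraries of the compared groups did not overlap at 8 of the 10 genes, against 70.0% of all genes.

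DUSP5, a nuclear phosphatase that is specific for ERK, went the other way. It read 7.76 and 9.66 FPKM in NT and 31.0 and 23.2 FPKM in NT + TPL cells, without overlap. The rise was 3.09-fold, with a log2 fold change of 1.63 (SE 0.184, 95% interval 1.19 to 2.06, edgeR adjusted p = 0.00112). DUSP10, which prefers p38 and JNK over ERK, read 3.57 and 5.22 FPKM and then 6.81 and 6.59 FPKM. Its log2 fold change of 0.48 (95% interval -0.16 to 1.13) did not pass the test (edgeR adjusted p = 0.202), although both treated libraries lay above both controls.

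SPRY2, an inhibitor of receptor signalling to RAS and RAF, read 12.5 and 15.4 FPKM in NT and 1.05 and 1.45 FPKM in NT + TPL libraries. It fell with a log2 fold change of -3.49 (SE 0.69, edgeR adjusted p = 0.00901), an 11.2-fold lower level. The files list 3 more rows under RefSeq accessions of SPRY2, NM_001318536, NM_001318537 and NM_001318538, and the reads of the gene were divided among them unevenly. Summed over the 4 rows, SPRY2 had 257 and 292 expected counts in NT and 46.0 and 25.0 in NT + TPL libraries, and the log2 fold change was -2.88 (SE 0.389, edgeR adjusted p = 0.00216). SPRY4, the other Sprouty, read 7.18 and 9.62 FPKM without and 14.9 and 6.36 FPKM with TPL. The treated libraries of SPRY4 lay on either side of the controls, and its log2 fold change of 0.33 (95% interval -0.51 to 1.17) did not pass the test (edgeR adjusted p = 0.497). Without NT + TPL replicate 1 it was -0.38 (adjusted p = 0.242), and without NT + TPL replicate 2 it was 0.81 (adjusted p = 0.0371).

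The Spred genes, whose products bring the RAS inhibitor neurofibromin to the membrane, did not pass the test. SPRED1 read 5.75 and 6.02 FPKM and then 5.66 and 5.08 FPKM, with a log2 fold change of -0.14 (95% interval -0.44 to 0.16). SPRED2 read 7.17 and 10.3 FPKM and then 6.82 and 3.50 FPKM, with a log2 fold change of -0.79 (edgeR adjusted p = 0.0838). Without NT + TPL replicate 1 it was -1.33 and past the threshold (adjusted p = 0.0105). PHLDA1 read 18.2 and 25.3 FPKM and then 21.8 and 15.7 FPKM. These libraries overlapped, and the log2 fold change was -0.22 (95% interval -0.69 to 0.25).

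The study's methods set stricter limits, 0.001 for the adjusted p and 1.2 for the log2 change in either direction. Put on the edgeR values, these limits called DUSP1 and DUSP4 alone of the 10 genes, against 3.93% of all genes. The study applied them to its own test, so the calls by these limits, here and below, are not those of the study. All 10 genes read higher in replicate 2 than in replicate 1 of NT on a scaled log2 scale, where the median difference was 0.36, and 9 of 10 read higher in replicate 1 of NT + TPL. Among all genes 51.0% and 49.8% read higher in replicate 2 of these groups. With a library left out, the log2 fold changes lay between -4.08 and -3.82 for DUSP1 and -1.79 and -1.72 for DUSP4. They lay between -2.02 and -1.48 for DUSP6, -3.78 and -3.23 for SPRY2, and 1.44 and 1.81 for DUSP5. Beyond this, the part of these replicate differences in the results was not tested.

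The same question was asked of transformed cells by comparing TAM + TPL with TAM. The 5 genes called in NT cells were called here too, and in the same directions, and DUSP10 rose and PHLDA1 fell in addition. In all, 7 of the 10 genes were called, against 33.0% of all genes tested, and 2 of them rose and 5 fell, against 14.3% higher and 18.6% lower over all genes. The median log2 fold change was -1.02 over the 10 genes and 0.05 over all genes. Higher calls were 43.5% of all calls here, 61.1% with upper quartile scaling and 34.7% with GAPDH as the reference. The 2 TPL comparisons share no library.

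DUSP1 read 621 and 598 FPKM in TAM and 21.4 and 34.7 FPKM in TAM + TPL cells, which is a 22.4-fold fall (log2 fold change -4.49, SE 0.253, edgeR adjusted p = 0.000252). DUSP4 read 34.7 and 34.6 FPKM without and 8.37 and 8.75 FPKM with TPL, a 4.18-fold fall. DUSP6 went from 46.4 and 46.4 FPKM to 7.37 and 7.48 FPKM. Its replicates were close in both groups, and the fall was 6.46-fold (log2 fold change -2.69, SE 0.226, 95% interval -3.23 to -2.16, edgeR adjusted p = 0.000504).

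DUSP5 read 3.93 and 4.45 FPKM in TAM and 18.9 and 19.7 FPKM in TAM + TPL cells. It rose 4.44-fold, with a log2 fold change of 2.15 (SE 0.192, edgeR adjusted p = 0.000593). DUSP10 went from 1.29 and 1.65 FPKM to 4.06 and 4.86 FPKM, so that it was the second gene of the group to rise. Its log2 fold change was 1.55 (SE 0.287, 95% interval 0.87 to 2.23, edgeR adjusted p = 0.00779). Without TAM replicate 1 it was 1.37 and no longer past the threshold (adjusted p = 0.0559).

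PHLDA1 read 38.8 and 38.5 FPKM in TAM and 17.2 and 16.3 FPKM in TAM + TPL cells. It fell 2.39-fold (log2 fold change -1.25, SE 0.2, edgeR adjusted p = 0.00452). SPRY2 went from 7.93 and 7.26 FPKM to 0.54 and 3.18 FPKM. Both treated libraries were below both controls but 2.35 apart on the log2 scale. That was the widest gap between replicates among the rows of the 10 genes under their gene IDs. It leaves out the reads under the other SPRY2 rows, whose sum is given below. The log2 fold change was -2.07 (95% interval -3.62 to -0.53), just within the threshold (edgeR adjusted p = 0.0479).

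The SPRY2 call in TAM cells was lost when any library other than TAM + TPL replicate 2 was left out, with adjusted p between 0.0532 and 0.144. It was also lost with library size, upper quartile or GAPDH scaling and in a fit of the groups compared alone, with adjusted p between 0.0523 and 0.0695, so that 8 of 19 alternatives called SPRY2. Without TAM + TPL replicate 1 the log2 fold change was -1.31, and without TAM + TPL replicate 2 it was -3.87. Over the 4 SPRY2 rows summed, TAM libraries had 193 and 180.0 expected counts and TAM + TPL libraries 33.0 and 74.0, and the log2 fold change was -1.77 (SE 0.373, edgeR adjusted p = 0.0124).

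SPRED2 read 11.3 and 12.1 FPKM in TAM and 6.90 and 6.88 FPKM in TAM + TPL cells, with a log2 fold change of -0.79 (95% interval -1.5 to -0.07) that did not pass the test (edgeR adjusted p = 0.0869). Leaving out either NT + TPL library brought its adjusted p to 0.0219, with a log2 fold change of -0.78. SPRED1 read 8.96 and 9.12 FPKM and then 8.39 and 9.20 FPKM, and SPRY4 read 21.3 and 19.2 FPKM and then 19.4 and 16.5 FPKM. Their log2 fold changes of -0.09 (95% interval -0.38 to 0.20) and -0.21 (95% interval -1.03 to 0.61) did not pass the test, and their FPKM overlapped between the groups. In counts per library scaled by TMM, the groups did not overlap at any of the 10 genes, against 75.0% of all genes. By the study's thresholds, DUSP1, DUSP4, DUSP5 and DUSP6 were called, against 2.88% of all genes.

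**Figure D2:**
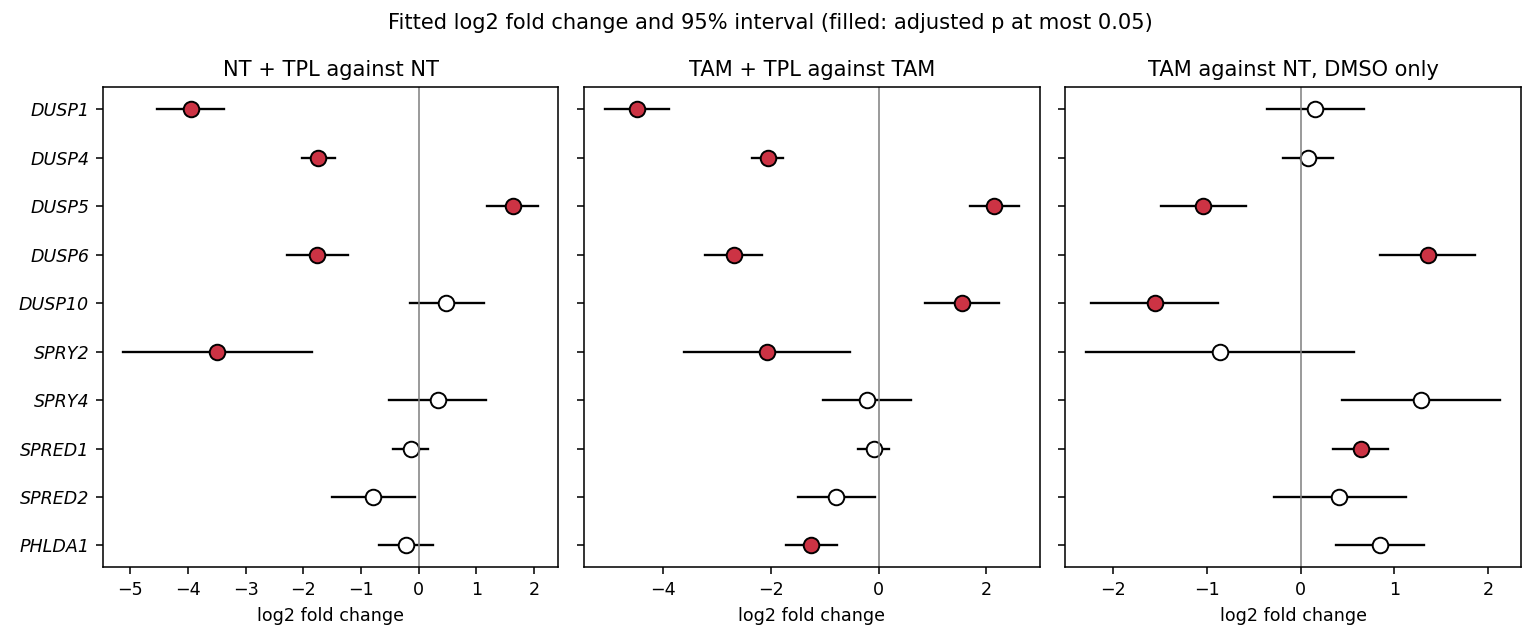
Fitted log2 fold change (horizontal axis) with its 95% interval for each feedback gene in 3 comparisons; filled points have an adjusted p of at most 0.05 and open points do not. DUSP1, DUSP4, DUSP6 and SPRY2 lie left of 0 and DUSP5 right of 0 with TPL in both cell states. Between TAM and NT cells the points of DUSP5, DUSP6, DUSP10 and SPRED1 are filled, calls that changed when a library was left out.

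TAM cells were compared with NT cells, both in DMSO, to see which feedback genes differed with transformation. DUSP6 and SPRED1 were higher and DUSP5 and DUSP10 were lower in TAM cells, 4 of 10 genes called against 6.84% of all genes tested, 3.46% higher and 3.39% lower. None met the study's thresholds, which 0.655% of all genes met. This comparison shares its libraries with the 2 TPL comparisons above.

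DUSP6 stood at 15.0 and 21.7 FPKM in NT and 46.4 FPKM in both TAM libraries. It was 2.56-fold higher, with a log2 fold change of 1.36 (SE 0.213, 95% interval 0.85 to 1.86, edgeR adjusted p = 0.0123). SPRED1 was 1.56-fold higher, at a log2 fold change of 0.64 (SE 0.125, edgeR adjusted p = 0.0286). DUSP5 was 2.05-fold lower, at a log2 fold change of -1.04 (SE 0.191, edgeR adjusted p = 0.0229). DUSP10 was 2.95-fold lower, at a log2 fold change of -1.56 (SE 0.287, edgeR adjusted p = 0.0225). The libraries of TAM and NT did not overlap at any of the 4 genes.

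PHLDA1, at 18.2 and 25.3 FPKM in NT and 38.8 and 38.5 FPKM in TAM cells, had a log2 fold change of 0.85 (95% interval 0.38 to 1.32) and just missed the threshold (edgeR adjusted p = 0.0525), which it passed with DESeq2 (adjusted p = 0.000241). SPRY4 read 7.18 and 9.62 FPKM in NT and 21.3 and 19.2 FPKM in TAM cells, with a log2 fold change of 1.28 (95% interval 0.44 to 2.13, edgeR adjusted p = 0.0902, DESeq2 adjusted p = 0.000906). SPRED2 had a log2 fold change of 0.41 (95% interval -0.29 to 1.12) and SPRY2 one of -0.86 (95% interval -2.29 to 0.57). Summed over its rows, SPRY2 had -0.58 (95% interval -1.42 to 0.25). DUSP1 and DUSP4, at 0.15 (95% interval -0.36 to 0.67) and 0.08 (95% interval -0.19 to 0.34), were the nearest to 0. All 10 genes had non-overlapping libraries in this comparison, as had 53.8% of all genes.

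The calls between TAM and NT cells changed when a library was left out, also with libraries of the TPL groups, which are not part of this comparison, whereas the log2 fold changes of the 4 genes kept their direction. Without TAM replicate 1 or TAM replicate 2 none of the 10 genes was called, without NT replicate 1 only DUSP10, and without NT replicate 2 or either TAM + TPL library only DUSP6. The log2 fold changes with a library left out lay between 1.11 and 1.65 for DUSP6, 0.61 and 0.67 for SPRED1, -1.19 and -0.87 for DUSP5, and -1.81 and -1.27 for DUSP10. Without either NT + TPL library 6 genes were called, with SPRY4 (log2 fold change 1.31) and PHLDA1 (0.88) added. With levels scaled to GAPDH the median of all genes was -0.50 in place of -0.03 and 16.0% of all calls were higher in place of 50.5%. DUSP5 and DUSP10 were called lower with this scaling, SPRED1 had a log2 fold change of 0.17, and DUSP6 had a log2 fold change of 0.86 (adjusted p = 0.0776).

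With TPL present in both states, SPRED1 was the single gene called between TAM + TPL and NT + TPL, 1 of 10 against 7.03% of all genes. It did not meet the study's thresholds, as 0.596% of all genes did. Of all calls 40.2% were higher in TAM + TPL cells, and 22.7% with GAPDH as the reference. SPRED1 was 1.61-fold higher in TAM + TPL cells (log2 fold change 0.69, SE 0.126, 95% interval 0.39 to 0.98, edgeR adjusted p = 0.0224). The log2 fold changes of the others ran from -0.51 for DUSP5 to 0.75 for SPRY4, and DUSP6 had 0.43 (95% interval -0.11 to 0.96). DUSP1, SPRY2 and PHLDA1 overlapped between the groups, and the 7 others did not, against 48.5% of all genes. The SPRED1 call was lost, with adjusted p between 0.0523 and 0.149, when any library other than NT + TPL replicate 1 was left out. Without NT + TPL replicate 1, SPRY4 was called too, at a log2 fold change of 1.48 (adjusted p = 0.0218).

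Whether TPL acted differently in the 2 cell states was tested as an interaction, the TPL effect in TAM cells minus that in NT cells. None of the 10 genes was called by edgeR, against 0.165% of all genes, and 3 of them had an unadjusted p under 0.05, against 10.6% of all genes. These were PHLDA1 at -1.03 on the log2 scale (95% interval -1.69 to -0.37, edgeR adjusted p = 0.285), DUSP6 at -0.93 (95% interval -1.66 to -0.20, edgeR adjusted p = 0.366) and DUSP10 at 1.07 (95% interval 0.14 to 2.0, edgeR adjusted p = 0.414). DESeq2 called PHLDA1 (adjusted p = 0.0136) and no other. The PHLDA1 fall past the test in TAM cells and not in NT cells is therefore not shown by edgeR to differ between them. The interaction of SPRY2 was 1.41 (95% interval -0.76 to 3.58), and -0.38 without TAM + TPL replicate 2. With its rows summed it was 1.1 (95% interval -0.14 to 2.34).

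Ordered by mean FPKM, DUSP1, DUSP4 and PHLDA1 ran TAM, NT, NT + TPL and TAM + TPL from high to low, and DUSP6 and SPRED2 ran TAM, NT, TAM + TPL and NT + TPL. DUSP5 and DUSP10 ran NT + TPL, TAM + TPL, NT and TAM. SPRY2 ran NT, TAM, TAM + TPL and NT + TPL, SPRY4 ran TAM, TAM + TPL, NT + TPL and NT, and SPRED1 ran TAM, TAM + TPL, NT and NT + TPL. Neighbours overlapped in FPKM between the TPL groups for DUSP1, SPRY2 and PHLDA1, between TAM + TPL and NT for DUSP10, between TAM and TAM + TPL for SPRY4 and SPRED1, between NT + TPL and NT for SPRY4, and between NT and NT + TPL for PHLDA1. DUSP1 ranked above 99.4% of the listed genes in NT and 91.2% in TAM + TPL cells, and DUSP10 above 61.9% and 63.4%. SPRY2, by the row under its gene ID alone, ranked above 80.8% of genes in NT and 42.1% in NT + TPL cells.

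The genes of RNA pattern most like DUSP1, among 14125 genes with a mean of at least 1 FPKM, were FOXF2 (r = 0.999), C1orf198 (r = 0.998) and FOS (r = 0.998), by Pearson's r of scaled log2 values over the 8 libraries. FOS, a subunit of AP-1 and a classical ERK target, read 503 and 576 FPKM in NT and 555 and 454 FPKM in TAM libraries. With TPL it read 33.6 and 26.7 FPKM in the former and 21.8 and 26.8 FPKM in the latter. Most like DUSP6 were WRNIP1 (r = 0.994), MCC (r = 0.99) and GAS1 (r = 0.988). The 8 libraries form 4 groups, so that r mostly follows the differences between groups. It exceeded 0.9 for 13.6% of the genes with DUSP1 and for 6.58% with DUSP6.

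RNAPII was looked at over the same genes through the lists of promoter peaks. Each list gives positions alone, without height or replicate. The main TSS lay in a peak for 9 of the 10 genes in both DMSO lists and for all 10 in both TPL lists. Of 14821 tested genes, the share was 63.8% for NT and 56.2% for TAM, and 50.9% and 50.0% for the same states with TPL. The gene without a peak over its TSS in both DMSO lists was DUSP10. There the nearest peak, 640 bases wide in NT and 655 in TAM, ended 695 and 722 bases upstream of the TSS. With TPL a peak covered the DUSP10 TSS in NT (chr1:221915240-221915878) and TAM cells (chr1:221915278-221915605).

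**Figure D3:**
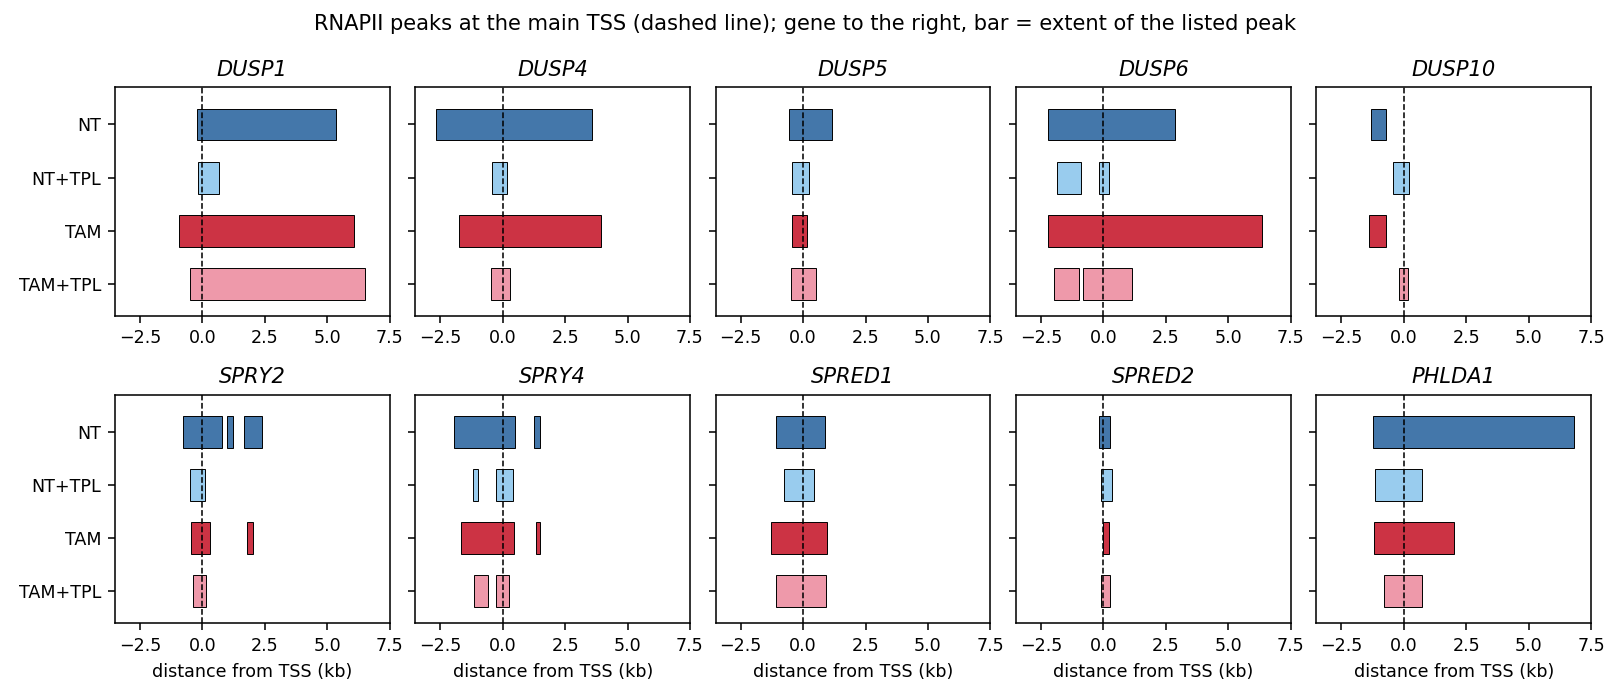
Extent of the listed RNAPII peaks around the main TSS of each feedback gene (horizontal axis, distance from the TSS in kb, gene to the right of the dashed line) in the 4 conditions. The DUSP4 and DUSP6 peaks over the TSS are shorter with TPL in both states, the DUSP1 peak is short in NT + TPL alone, and DUSP10 has a peak over its TSS with TPL alone.

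At 9 genes with a peak over the TSS in both NT lists, all 9 peaks were narrower with TPL, where 62.9% of 7270 genes had narrower peaks. The median ratio of widths was 0.286 for these 9 and 0.876 for all. The NT peaks of PHLDA1, DUSP4, DUSP1, DUSP6, SPRY4 and SPRED1 were wider than 91.7 to 99.1% of NT peaks over a main TSS. Those of DUSP5, SPRY2 and SPRED2 were wider than 88.8, 86.7 and 22.5% of them. The part of this starting width in the narrowing was not tested. Widths count only the peak over the TSS, for these genes as for all. The DUSP6 peak over the TSS went from 5087 to 405 bases (chr12:89743418-89748504 to chr12:89746071-89746475), a 12.6-fold narrowing. Another DUSP6 peak of 978 bases (chr12:89747160-89748137), within the span of the NT peak, was listed with TPL and is not in this width. The peak at DUSP4, on chromosome 8, went from 6246 to 614 bases, and the DUSP1 peak from 5580 bases (chr5:172192830-172198409) to 861 bases (chr5:172197520-172198380). In NT the DUSP1 peak spanned the whole gene and 2269 bases beyond its end, and in NT + TPL it covered 21.9% of the gene. PHLDA1 went from 8074 to 1903 bases, SPRY4 from 2447 to 700, DUSP5 from 1728 to 661, SPRY2 from 1587 to 600, SPRED1 from 1987 to 1220 and SPRED2 from 437 to 429. NT + TPL had another SPRY4 peak of 189 bases within the NT span. The NT list also held peaks at SPRY2 and SPRY4 beside the ones over the TSS.

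Narrower peaks with TPL in NT cells were found both at genes whose RNA fell, such as DUSP6, and at DUSP5, whose RNA rose. In TAM cells 6 of 9 peaks were narrower and 3 wider with TPL, with a median ratio of 0.661 against 1.04 for all genes, of which 44.8% were narrower. Here too the peaks without TPL ranged from wide to narrow. That of DUSP6 was wider than 99.7% of TAM peaks over a main TSS and that of SPRED2 wider than 14.2%. DUSP4 went from 5685 to 783 bases and DUSP6 from 8564 to 1969. Another DUSP6 peak of 1009 bases was listed in TAM + TPL, within the span of the TAM peak. SPRY4 went from 2143 to 555, PHLDA1 from 3178 to 1526, SPRY2 from 793 to 524 and SPRED1 from 2233 to 1980 bases. TAM + TPL had another SPRY4 peak of 572 bases within the TAM span. The TAM list also held peaks at SPRY2 and SPRY4 beside the ones over the TSS. The wider peaks were those of DUSP5, from 629 to 1005 bases, of SPRED2, from 239 to 355, and of DUSP1, from 6993 to 7040.

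The DUSP1 peak in TAM + TPL (chr5:172191666-172198705) covered the whole gene and 3433 bases beyond it, while its RNA was 22.4-fold lower than in TAM cells. It was wider than the peak over the TSS at 99.8% of the tested genes that had one in that list. The peak names of the TAM list carry another setting than the 3 other lists (a q of 0.1 in place of a cutoff of 0.02), and 4584 of its 11056 names mark a split peak. Whether these settings are on the same scale is not given in the names. The settings of the list and the condition cannot be told apart in comparisons with TAM, and with 1 list per condition no width was tested.

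Of 7 other MAP kinase phosphatases tested, 2 rose and 4 fell with TPL in NT cells, and 1 rose and 2 fell in TAM cells, against 37.0% and 33.0% of all genes called, so that the count in TAM cells is near that of all genes. DUSP7, a cytoplasmic ERK phosphatase close to DUSP6, read 101 and 106 FPKM in NT and 14.0 and 7.10 FPKM in NT + TPL cells (log2 fold change -3.31, SE 0.33, edgeR adjusted p = 0.00074). In TAM cells its log2 fold change with TPL was -3.68 (SE 0.338, edgeR adjusted p = 0.000657). DUSP14 rose in both, at 1.04 and 0.67, and DUSP3 fell in both, at -2.40 and -1.78. Between TAM and NT cells in DMSO, DUSP22 was higher (log2 fold change 1.04) and DUSP2 lower (-1.46).

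SPRY1, the nearest relative of SPRY2 in the lists, fell with TPL, at -3.57 on the log2 scale in NT (SE 0.397, edgeR adjusted p = 0.00105) and -2.42 in TAM cells (SE 0.369, edgeR adjusted p = 0.00378). SPRED3 rose with TPL in NT cells (log2 fold change 1.90) and was 4.53-fold higher in TAM than in NT cells (edgeR adjusted p = 0.00638). SPRY3, with at most 0.26 FPKM, passed no test.

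The list of 22 cascade genes runs from the EGF receptor to ERK and also holds RPS6KA1 and RPS6KA3. With TPL 1 of them rose and 5 fell in each cell state. That share is below the 37.0% (NT) and 33.0% (TAM) of all genes called. The medians were -0.38 (NT) and -0.35 (TAM) on the log2 scale. RPS6KA1, a kinase that ERK activates, fell in both states (log2 fold changes -1.66 and -1.75), as did NRAS (-1.33 and -1.31). EGFR, the receptor at the head of the cascade, read 32.7 and 74.5 FPKM in NT and 23.0 and 15.1 FPKM in TAM libraries. With TPL it read 37.1 and 10.3 FPKM in the former and 8.90 and 8.55 FPKM in the latter. Its log2 fold changes of -1.19 and -1.18 with TPL and -1.46 between TAM and NT cells passed no test. MAPK3, which encodes ERK1, was 3.60-fold lower in TAM than in NT cells in DMSO (log2 fold change -1.85, SE 0.226, edgeR adjusted p = 0.00471) and was the single gene of the cascade called there.

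Of 18 genes listed as ERK output, 4 rose and 11 fell with TPL in NT cells and 4 rose and 9 fell in TAM cells. Their median log2 fold changes were -1.26 and -0.96. Whether ERK sets the levels of the listed genes, ELK1, ELK3 and PHLDA3 among them, was not tested. Over all genes 37.0% were called in NT cells, 17.2% higher and 19.8% lower, and 33.0% in TAM cells, 14.3% higher and 18.6% lower. FOS fell in both, at -4.17 and -4.42 on the log2 scale, as did CCND1, which encodes cyclin D1, at -1.90 and -1.34, and MYC, at -4.80 and -2.15. EGR1 fell in NT cells (log2 fold change -1.78, edgeR adjusted p = 0.0104) and had -0.74 in TAM cells (edgeR adjusted p = 0.155). HBEGF, a ligand of EGFR, rose, from 13.9 and 9.30 to 129 and 99.5 FPKM in NT and from 7.60 and 5.32 to 81.2 and 69.6 FPKM in TAM cells. ETV5, an ETS factor, also rose in both (log2 fold changes 2.14 and 1.45), as did EPHA2 and PHLDA2.

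ETV4, another ETS factor, was 4.38-fold higher in TAM than in NT cells in DMSO (log2 fold change 2.13, SE 0.434, edgeR adjusted p = 0.0327) and had 0.23 and 0.41 with TPL, which passed no test. Of the 18 genes listed as ERK output, ETV1 was higher in TAM cells in DMSO as well, at 0.43 and 0.44 against 0.08 and 0.02 FPKM. MYC, AREG and PHLDA3 were lower. FOS, EGR1 and ETV5 had log2 fold changes of -0.08, -1.32 and 0.78 there and were not called.

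**Figure D4:**
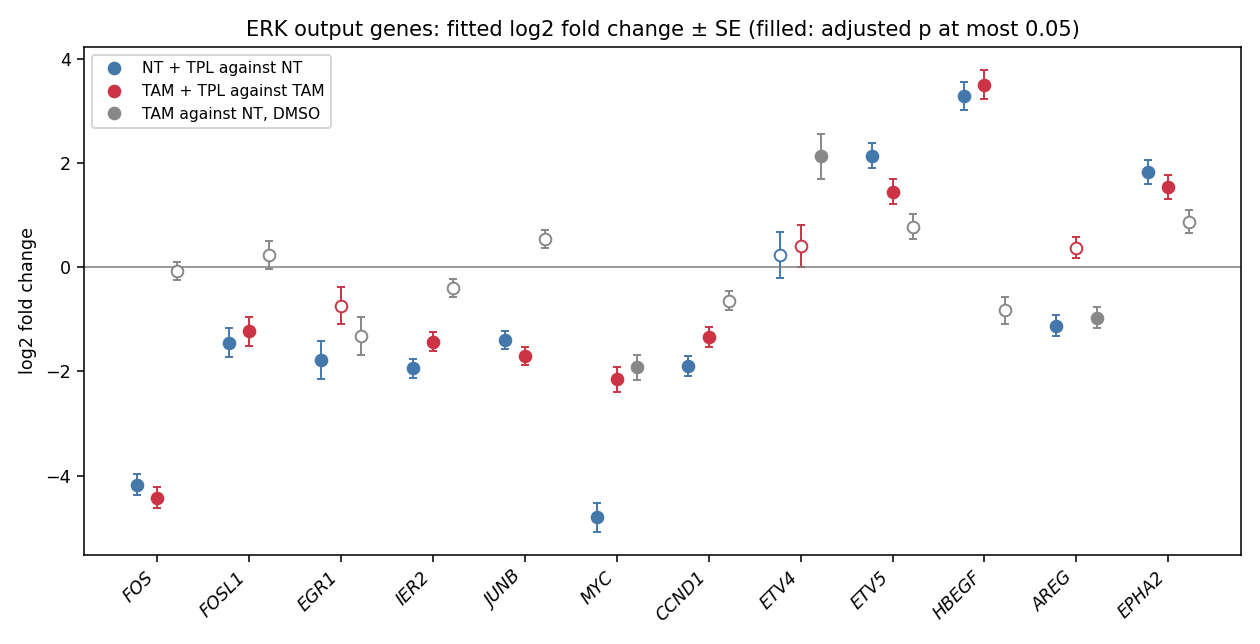
Fitted log2 fold change ± SE (vertical axis) of 12 ERK output genes in 3 comparisons; filled points have an adjusted p of at most 0.05 and open points do not. FOS and MYC are the lowest and HBEGF the highest with TPL, and ETV4 is the highest of those drawn between TAM and NT cells.

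Of 12 other inhibitors of the pathway, 1 rose and 4 fell with TPL in NT cells and 3 fell in TAM cells, counts near the 37.0% and 33.0% of all genes. RASAL2, a RAS GTPase-activating protein, fell in both, at -2.85 and -2.58 on the log2 scale, and so did PEA15, which keeps ERK in the cytoplasm, at -1.5 and -0.83. Of 8 tested genes of the p38 and JNK branches, on which several of the phosphatases act, 1 rose and 2 fell with TPL in NT cells, near the 37.0% of all genes, and 2 rose and 4 fell in TAM cells, against 33.0%. MAP2K3, which activates p38, rose in both (log2 fold changes 1.44 and 1.09), and MAP2K7, which activates JNK, fell in both (-1.73 and -1.93). MAP2K3 has another row besides the one under its gene ID, as have HRAS, MAPK9 and IL17RD of the lists. Only the row under the gene ID was used for them. MAPK11 was 3.58-fold higher in TAM than in NT cells in DMSO. With TPL present in both states, 2 genes listed as ERK output, ETV4 (log2 fold change 2.31) and PHLDA3 (-0.78), were called between TAM and NT cells. So were 3 genes of the cascade, ERBB2, MAP2K2 and MAPK3. EGFR, FOS, EGR1 and ETV5 had log2 fold changes of -1.45, -0.33, -0.27 and 0.09 there. Of 70 tested genes on these lists, none was called in the interaction by edgeR, against 0.165% of all genes, 10 had an unadjusted p under 0.05, near the 10.6% of all genes, and DESeq2 called 3, MYC, AREG and SPRED3. With each library left out in turn, 28 of the 37 listed genes called with TPL in NT cells and 20 of 32 in TAM cells were called every time, the exceptions among those named being EGR1 in NT and DUSP14 and PEA15 in TAM cells. Between TAM and NT cells this held for 1 of 10 in DMSO, PHLDA3, and for 2 of 12 with TPL, MAPK3 and MAPK11.

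The annotation places a long non-coding RNA, ENSG00000274021, on the strand opposite to DUSP6, over 28.6% of the exon bases of DUSP6, and PHLDA1-AS1 opposite to 9.35% of those of PHLDA1. Whether the counting used strand is not given in the sources used here, and reads of these pairs cannot be told apart without it. No exon of another annotated gene overlapped those of the 8 other feedback genes.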

How the data were processed

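Expression was measured by RNA-Seq in 8 libraries, 2 per group, of 18 samples in all (triptolide at 125 nM). The authors aligned reads with Bowtie2 to reference transcripts and estimated the deposited expected counts and FPKM with RSEM. A gene with no reads has no line in a library's file and was taken as 0. For RNAPII, the authors aligned ChIP reads to hg19 with SOAP2 per the paper's methods (the submitters' processing notes list BWA), and called peaks over input with MACS 1.4.2. The deposited 4 peak lists hold positions alone, and 99.1 to 99.3% of the peaks lie within 1000 bases of an annotated TSS. Their names carry a tag of replicate 1, and whether replicates were pooled is not given in the sources used here.

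Expected counts were rounded, scaled by TMM, filtered by filterByExpr and tested in edgeR 4.0.16 (R 4.3.3) by the quasi-likelihood test, with all 4 groups fitted together across 16948 genes (common dispersion 0.099), two-sided, with Benjamini-Hochberg adjustment and a call at 0.05. The p-values rest on 2 cultures per group. Intervals are 95% and use the standard error of the fit. The libraries held 7461309 to 8349448 counts, and the lowest value of the 10 genes was 9.21, for SPRY2 with TPL, so that counting error is large there. The alternatives were DESeq2 1.42.0, limma 3.58.1 on log2(FPKM + 1) and log2(FPKM + 0.1), other scalings and filters, the study's thresholds, a replicate block, fits of the groups compared only, and each library left out. Summing the rows of SPRY2 was added after seeing the data. Gene names came from a RefSeq table by gene ID. TSSs and promoter bases came from GENCODE 44 on GRCh37, with Python 3.11.15.

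The 10 genes and the gene lists were chosen with earlier results of these data known. The named genes are the 10 in every comparison, list genes that passed the test with examples given in the text, EGFR, FOS, EGR1, ETV4 and ETV5 whatever their values, and the 3 genes most correlated with DUSP6 and with DUSP1. ChIP signal and replicates were not used here.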

Additional observations from a re-analysis of the deposited data

How the results depend on the processing

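The 10 genes with TPL in NT cells gave between 4 and 6 calls under every alternative fit at an adjusted p of 0.05, and those in TAM cells between 5 and 8, but 2 and 4 under the study's thresholds. Between TAM and NT cells in DMSO there were 4 calls, and 0 under the study's thresholds, 2 with GAPDH as the reference, 2 with the replicate block, 6 with DESeq2, under the minimum of 10 counts per library or in a fit of the groups compared alone, SPRY4 and PHLDA1 being the genes added, and 0 to 6 with a library left out. With TPL present there was 1 call, and 0 under the study's thresholds, with GAPDH as the reference or with only the groups compared, and 0 to 2 with a library left out. The interaction gave 0 calls, and 1 with DESeq2. Stricter thresholds and fewer libraries apart, the cause was not tested.

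Same-numbered replicates did not deviate together (r of their differences between -0.14 and 0.05 across the 6 pairs of groups). This cannot show whether same-numbered samples were grown or processed together, which the sample titles do not give. With the replicate block, DUSP5 and SPRED1 between TAM and NT cells in DMSO had adjusted p of 0.0519 and 0.0583, and it changed no other call of the 10 genes.

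Signs changed for values that did not pass the test as reported. With GAPDH as the reference the log2 fold change was -0.08 for SPRY4 and -0.08 for ETV4 with TPL in NT cells, -0.32 for DUSP1, -0.40 for DUSP4 and -0.08 for SPRED2 between TAM and NT cells in DMSO, and -0.13 for ETV5 with TPL present. With upper quartile scaling it was 0.08 for SPRED1 and 0.0004 for PHLDA1 with TPL in NT cells, and 0.03 for SPRY4 and 0.15 for SPRED1 in TAM cells. With a library left out, the ranges that crossed 0 with TPL in NT cells were -0.38 to 0.81 for SPRY4 (0.81 passing the test), -0.45 to 0.02 for PHLDA1 and -0.22 to 0.85 for ETV4. Between TAM and NT cells they were -0.23 to 0.05 for FOS in DMSO and, with TPL present, -0.35 to 0.06 for PHLDA1, -1.21 to 1.34 for SPRY2, -0.73 to 0.48 for EGR1 and -0.04 to 0.28 for ETV5. In the interaction they were -0.40 to 0.55 for SPRED2, -1.02 to 0.17 for SPRY4, -0.01 to 0.10 for SPRED1 and -0.38 to 2.17 for SPRY2. A group left with 1 library is assumed to vary like the others. The order of the groups was the same for 10 of 10 genes by log2 CPM as by FPKM, and all peak counts kept within 1.5 times under the other definitions of a TSS in a peak. A minimum of 10 counts in every library removed SPRY2.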
